A study of Canis lupus familiaris with 186 samples.

Results

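The genes described here are the matrix metalloproteinases (MMP), the ADAMTS proteases and the tissue inhibitors of metalloproteinases (TIMP) in primary osteosarcoma of the dog. They were taken by name, as every row of the deposited table whose symbol is MMP, ADAMTS or TIMP followed only by a number. This gave 45 of the 37952 rows, made up of 22 MMP, 19 ADAMTS and 4 TIMP genes. Of these, 31 had counts high enough to be tested, and the other 14 are given by their values.

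MMPs are zinc-dependent endopeptidases that cut the proteins of the extracellular matrix. Most are secreted as inactive proenzymes, and some are anchored in the plasma membrane. ADAMTS proteases are secreted relatives with thrombospondin repeats, of which some cut the large proteoglycans of cartilage and others trim procollagen before it forms fibrils. TIMPs bind the active site of these enzymes and block it. In bone, osteoclasts resorb mineralized matrix and release MMP9, while osteoblasts and hypertrophic chondrocytes make the collagenase MMP13.

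The samples are primary tumors of 186 pet dogs with appendicular osteosarcoma and no macroscopic metastasis at enrollment, 93 from the trial COTC021 and 93 from COTC022. Tumor was collected before any drug was given. After amputation, all dogs received carboplatin, and a share of them also received rapamycin, but the labels name only the trial, so treatment arms, GS-1 clusters, disease-free interval and overall survival were not analysed here. Each dog gave 1 library of bulk RNA, and normal bone was not analysed here. P-values therefore measure the spread between dogs, and in bulk RNA fewer cells of a type and less RNA per cell cannot be told apart.

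The total of each library ranged from 6587631 to 27420857 counts, with a median of 10797162. In 50 libraries the column name holds the sign __ where the others have a single line. Their median total was 19440449 counts, against 9851681 in the other 136, and they hold 18 dogs from COTC021 and 32 from COTC022, so they are called the __ libraries below, and values are given with and without them where they bear on a result. Of 10 osteoblast markers, all were tested, but 5 were at 0 counts in at least 1 dog, and their sum ranged from 83.0 to 15995 CPM, the count scaled to the size of its library. A sum of 9 skeletal muscle markers above 1000 CPM was found in 17 libraries, 7 from COTC021 and 10 from COTC022.

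All 45 genes were placed on the build GSD_1.0. The secreted MMPs of one cluster lie on chromosome 5 from 28994055 to 29337062, where 8 of the genes are found within 343.0 kb. In order these are MMP13, MMP12, MMP3, MMP1, MMP8, MMP27, MMP20 and MMP7. MMP9 lies apart on chromosome 24, from 33897331 to 33904192, and MMP2 on chromosome 2, from 59747357 to 59772363. ADAMTS1 and ADAMTS5 are neighbors on chromosome 31, from 22720934 to 22729448 and from 22794062 to 22841615. Of the 45 genes, 16 overlap another annotated gene and 5 overlap a protein-coding one, namely MMP14, MMP24, TIMP1, TIMP3 and TIMP4. TIMP1, TIMP3 and TIMP4 each lie in or overlap a synapsin gene (SYN1, SYN3 and SYN2). The authors made the libraries with a stranded mRNA kit. Whether their counting used strand is not given in the sources used here, so reads of overlapping genes may not be told apart.

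Levels are given as CPM, and they are compared between dogs and not between genes, since the lengths of the transcripts were not used here. MMP9, a gelatinase, ran from 1.40 to 8280.5 CPM in COTC021 with a median of 1313, and from 1.64 to 19727 CPM in COTC022 with a median of 1263. MMP13, which cuts fibrillar collagen, ran from 0.633 to 10078 CPM with a median of 579 in COTC021, and from 0.929 to 12079 CPM with a median of 776 in COTC022. MMP3, a stromelysin, was at 0 in the lowest dog of each trial and reached 4891 CPM in COTC021 and 1720.5 CPM in COTC022, with medians of 24.3 and 29.6. For each of the 3 genes the ranges of the trials overlapped, from near absent to very high, and the highest dog was in COTC022 for MMP9 and MMP13 and in COTC021 for MMP3.

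MMP14 and MMP2 had 10 or more counts in each of the 186 dogs. MMP14, a membrane-type MMP that activates proMMP2, ran from 406 to 3768 CPM in COTC021 and from 336 to 8432 CPM in COTC022, with medians of 1463 and 1347.5. MMP2, the other gelatinase, ran from 56.6 to 5898 CPM in COTC021 and from 123 to 5103 CPM in COTC022, with medians of 1213 and 1056. MMP2 spanned the wider range, with an SD of log2(CPM + 2) of 1.27 against 0.676 for MMP14, and the trials overlapped for both. The SD of MMP2 lay at the 95.2 percentile of all genes tested.

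Among the inhibitors, TIMP1 ran from 80.6 to 10143 CPM over all dogs, with medians of 594 in COTC021 and 568 in COTC022. TIMP2 had medians of 104 and 106 CPM and a highest value of 332. TIMP3, which binds to the matrix, had medians of 33.6 and 26.1 CPM and a highest value of 546. The aggrecanase ADAMTS4 had medians of 35.0 and 41.8 CPM, and the aggrecanase ADAMTS5 of 54.1 and 46.3 CPM.

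The tested members varied between dogs more than most genes. The median of their SDs of log2(CPM + 2) over the 186 dogs was 1.02, against 0.525 over all 13422 genes tested, and 15 of the 31 lay above the 90th percentile of all genes. MMP9 had an SD of 2.59, MMP13 of 2.42, MMP3 of 2.18 and MMP1, another collagenase, of 2.08. At the other end stood ADAMTS10 with 0.638, MMP15 with 0.669, MMP14 with 0.676 and TIMP2 with 0.685. Of the 31 tested members, 21 had at least 10 counts in every dog, and ADAMTS16 had them in the fewest, 121 dogs.

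**Figure D1:**
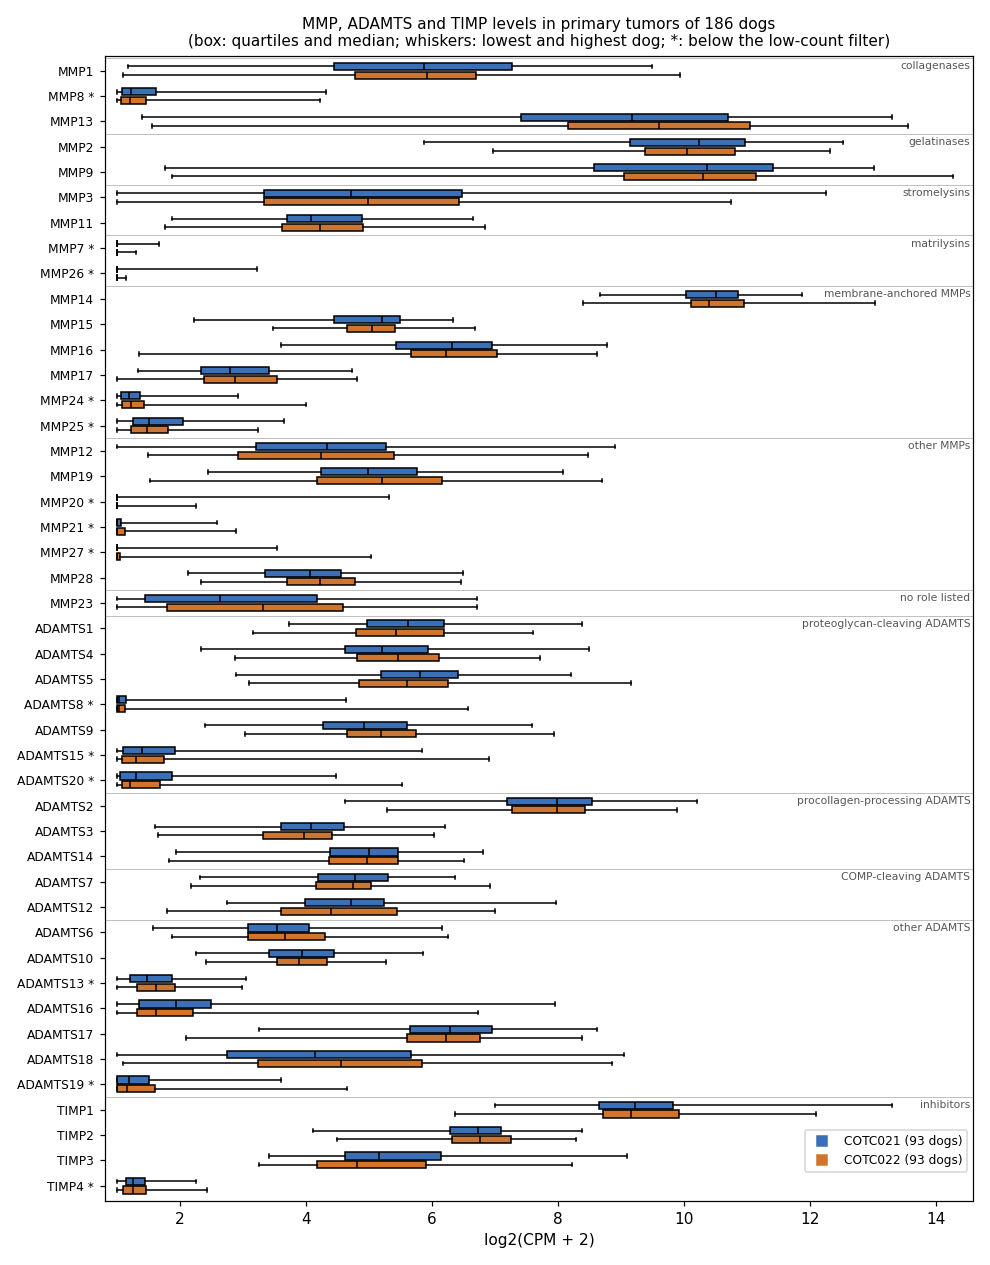
Levels of the 45 genes by trial, with log2(CPM + 2) on the x axis and genes grouped by role on the y axis; boxes give quartiles and median and whiskers the lowest and highest of 93 dogs, and an asterisk marks the 14 genes not tested. MMP3 and MMP13 are among the genes with the widest boxes, and the boxes of the 2 trials overlap for every gene.

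The first comparison asked whether the genes differ between the trials. In the limma fit none of the 31 tested members passed an adjusted p of 0.05, and none had an unadjusted p under 0.05. Among all genes 0.0149% were called. edgeR's quasi-likelihood test and DESeq2 also called no member, each with 1 member at an unadjusted p under 0.05. The log2 differences of the members, COTC022 minus COTC021, ranged from -0.31 to 0.54 with a median of 0.02, against 0.00 over all genes, and the lowest adjusted p was 0.554. The mean of MMP9 on the log2(CPM + 2) scale was 9.43 ± 2.86 (SD, n = 93) in COTC021 and 9.82 ± 2.29 (SD, n = 93) in COTC022, a gap far smaller than the spread between dogs.

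The second set of comparisons asked which members track the cell types of the tumor. For each dog a score was made as the mean z-score of log2 CPM over a list of markers, scaled to an SD of 1, and the slope is the log2 change of a gene per SD of the score with the trial in the fit. Scores were made for osteoclasts (9 markers tested of 10), osteoblasts (10), cartilage (9 of 14), leukocytes (10), neutrophils (5 of 10) and endothelium (10), and for the 27 genes of GS-1, a signature used by the study that is made up mainly of genes of immune cells. No MMP, ADAMTS or TIMP gene is in any of these lists. The scores are not independent of each other, with r = 0.92 between leukocytes and GS-1, 0.35 between osteoclasts and leukocytes, 0.34 between osteoclasts and osteoblasts and -0.38 between cartilage and leukocytes. A gene was called at an adjusted p under 0.05 over all 13422 genes.

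**Figure D2:**
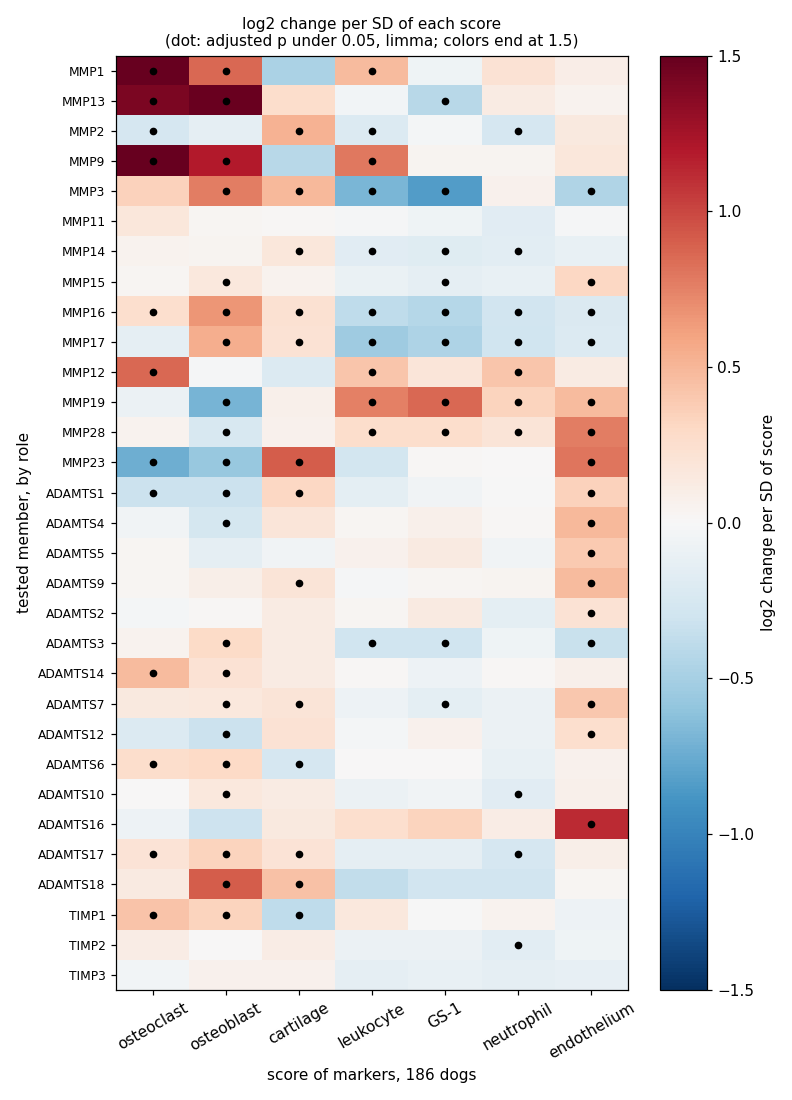
Slopes of the 31 tested members (rows, by role) on 7 scores (columns), as log2 change per SD of the score over 186 dogs; red is a rise, blue a fall, colors end at 1.5, and a dot marks an adjusted p under 0.05. MMP9, MMP1 and MMP13 stand out on the osteoclast score and MMP13 and MMP9 on the osteoblast score. MMP9 and MMP19 stand out as rises on the leukocyte score, and MMP19 as a rise and MMP3 as a fall on GS-1. On the endothelium score ADAMTS16, MMP23 and MMP28 stand out.

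MMP9, MMP1 and MMP13 rose steeply with the osteoclast score. MMP9 rose by 2.56 ± 0.079 log2 units per SD (SE, n = 186 dogs), a 5.90-fold change, with an adjusted p of 3.51e-76 in limma. MMP1 rose by 2.22 ± 0.106 (adjusted p = 2.15e-48, limma) and MMP13 by 1.42 ± 0.156 (adjusted p = 7.71e-15, limma). MMP12, the macrophage elastase, rose by 0.86 ± 0.145 (adjusted p = 4.32e-07, limma). The inhibitor TIMP1 also rose, by 0.43 ± 0.070 (adjusted p = 1.83e-07, limma), while MMP2 fell by 0.25 ± 0.093 (adjusted p = 0.0296, limma).

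In all, 12 of the 31 tested members were called on this score, against 31.8% of all genes, with 9 higher (15.1% of all genes) and 3 lower (16.7%). With a slope of at least 0.5 there were 5, of which 4 rose, against 3.57% of all genes in either direction and 2.79% for rises. The median slope of the tested members was 0.05, against -0.02 over all genes, and its median size without the sign was 0.15, against 0.08. ADAMTS14, which trims procollagen, rose by 0.47 ± 0.068, and MMP23, which is held in the membrane by its N-terminal end, fell by 0.74 ± 0.186. ADAMTS1 fell by 0.32 ± 0.068. MMP3, MMP14, ADAMTS4, ADAMTS5, TIMP2 and TIMP3 were not called. edgeR called 15 members, 8 higher and 7 lower, of which 11 were called by limma too, against 37.1% of all genes in edgeR (12.1% higher and 25.1% lower).

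The dogs lay close to a line for MMP9, whose level correlated with the osteoclast score at r = 0.943 and rho = 0.942 (permutation p = 1e-05 for both, the smallest that 100000 permutations can give, and adjusted p = 0.000126 and 0.000128 over all genes tested). Without the 2 dogs farthest from the median score r was 0.941, and it was 0.958 in COTC021, 0.919 in COTC022, 0.915 among __ libraries and 0.953 among the rest. MMP1 followed with r = 0.877 and rho = 0.866 (permutation p = 1e-05 for both, adjusted p = 0.000126 and 0.000128), and r between 0.863 and 0.932 within trials and groups of libraries. MMP13 was looser, with r = 0.552 and rho = 0.524 (permutation p = 1e-05 for both, adjusted p = 0.000126 and 0.000128), and r of 0.560 and 0.538 within the trials. The dogs thus scattered more widely around the line for MMP13 than for MMP9 and MMP1.

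**Figure D3:**
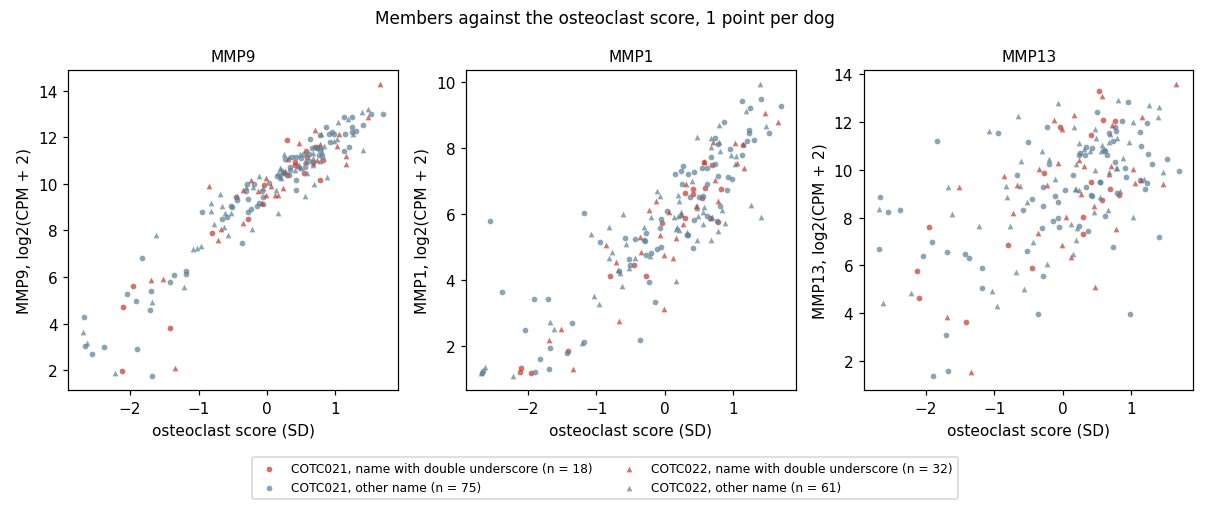
MMP9, MMP1 and MMP13 as log2(CPM + 2) on the y axes against the osteoclast score in SD on the x axes, 1 point per dog, with circles for COTC021, triangles for COTC022 and red for the 50 __ libraries. MMP9 (r = 0.943) and MMP1 (r = 0.877) follow the score in every group of points, and MMP13 (r = 0.552) scatters more widely.

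The genes whose pattern over the 186 dogs was most like that of MMP9 were ATP6V0D2 (r = 0.949), a proton pump subunit of osteoclasts, ACP5 (r = 0.947), the tartrate-resistant acid phosphatase, OCSTAMP (r = 0.924), which takes part in osteoclast fusion, PHETA1 (r = 0.913) and SLC9B2 (r = 0.903). The first 3 are markers of the osteoclast score itself. Among members, MMP9 correlated with MMP1 at r = 0.874 and rho = 0.888 and with MMP13 at r = 0.602 and rho = 0.492 (permutation p = 1e-05 for each). It correlated with TIMP1 at r = 0.426 and rho = 0.384 (permutation p = 1e-05 for both), and this r was 0.377 in COTC021 and 0.498 in COTC022. With MMP2 the sign was negative, with r = -0.233 and rho = -0.261 (permutation p = 0.00141 and 0.00035, adjusted p = 0.00808 and 0.0023).

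MMP13 was most like MMP9 (r = 0.602), SLC9B2 (r = 0.601), IBSP (r = 0.594), which encodes bone sialoprotein, ATP6V0D2 (r = 0.582) and PHETA1 (r = 0.579). MMP3 was most like MMP13 (r = 0.465), a gene of the same chromosome 5 cluster, followed by ST8SIA5 (r = 0.440), SIX2 (r = 0.427), UNC5C (r = 0.423) and PARD6G (r = 0.421). Within that cluster likeness was uneven. MMP13 correlated with MMP1 at r = 0.550 and rho = 0.493 (permutation p = 1e-05 for both, adjusted p = 0.0003 and 0.000344) and with MMP12 at r = 0.192 and rho = 0.179 (permutation p = 0.00901 and 0.0141, adjusted p = 0.0457 and 0.0688). MMP3 did not pass with the genes on either side of it. These were MMP1 (r = 0.160, rho = 0.152, permutation p = 0.0297 and 0.0389, adjusted p = 0.106 and 0.13) and MMP12 (r = 0.128, rho = 0.143, permutation p = 0.081 and 0.0526, adjusted p = 0.209 and 0.159).

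MMP13 also rose with the osteoblast score. Its slope was 1.48 ± 0.151 log2 units per SD (adjusted p = 2.25e-16, limma), and its correlation was r = 0.596 and rho = 0.485 (permutation p = 1e-05 for both, adjusted p = 7.92e-05 and 9.55e-05), with r of 0.588 and 0.597 within the trials. MMP9 rose by 1.19 ± 0.175 (adjusted p = 3.47e-09, limma) and MMP1 by 0.86 ± 0.210 (adjusted p = 0.000361, limma). Both slopes changed with the other scores in the fit, as given below. The membrane-type genes MMP16, with 0.66 ± 0.078 (adjusted p = 4.44e-13, limma), and MMP17, with 0.55 ± 0.085 (adjusted p = 2.18e-08, limma), rose as well. ADAMTS18 rose by 0.90 ± 0.215, MMP3 by 0.77 ± 0.232 and TIMP1 by 0.34 ± 0.073. MMP19 fell by 0.70 ± 0.089 (adjusted p = 1.41e-11, limma), and ADAMTS4 fell by 0.27 ± 0.075.

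Of the 31 tested members, 21 were called on the osteoblast score, 15 higher and 6 lower, against 40.6% of all genes (19.5% higher and 21% lower). A slope of at least 0.5 was found for 9, with 7 higher and 2 lower, against 6.22% (3.45% and 2.77%). The median size of the slope, taken without its sign, was 0.29 for the members and 0.09 over all genes. The osteoblast markers mark tumor cells of osteosarcoma as well as normal osteoblasts, and both cannot be told apart here.

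On the cartilage score, MMP23 and MMP2 rose most. MMP23 rose by 0.91 ± 0.149 log2 units per SD (adjusted p = 3.69e-07, limma) and MMP2 by 0.53 ± 0.088 (adjusted p = 6.97e-07, limma). The level of MMP23 was low, with a median of 5.90 CPM, 10 or more counts in 142 dogs and 0 counts in 8. MMP14, the activator of proMMP2, rose by a small 0.17 ± 0.049 (adjusted p = 0.00344, limma), and TIMP1 fell by 0.38 ± 0.071 (adjusted p = 6.48e-06, limma). MMP2 correlated with the score at r = 0.401 and rho = 0.348 (permutation p = 1e-05 for both, adjusted p = 0.000175 and 0.000147), with r of 0.447 and 0.350 within the trials. Among the genes that cut proteoglycans, ADAMTS1 rose by 0.31 ± 0.068, and the aggrecanases ADAMTS4 and ADAMTS5 were not called. ADAMTS4 had a slope of 0.18 with an adjusted p of 0.0572 in limma. The slope of TIMP1 in the __ libraries alone was -0.17, with an adjusted p of 0.452 in limma.

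There were 13 members called on cartilage, 11 higher and 2 lower, against 31.8% of all genes (15.8% higher and 16% lower). MMP2 and MMP23 were the 2 called with a slope of at least 0.5, both higher, against 2.67% of all genes and 1.74% for rises. The sum of the cartilage markers ranged from 10.9 to 105880 CPM over the dogs, and 10 of the 14 were at 0 in at least 1 dog. The count was 5 in COTC021 alone, against 14.4% of all genes there, and 6 in COTC022 alone, against 13.8%. edgeR called 9, with 4 higher and 5 lower, against 33.6% of all genes in edgeR (14.4% higher and 19.2% lower). MMP3, with a slope of 0.48 ± 0.182 (adjusted p = 0.0305, limma), had the opposite sign in edgeR, -0.26 with an adjusted p of 0.312, and ADAMTS18 was not called by edgeR (0.33, adjusted p = 0.157).

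With the leukocyte score MMP19 rose and MMP17 fell. MMP19 rose by 0.76 ± 0.090 log2 units per SD (adjusted p = 2.39e-13, limma) and MMP17 fell by 0.53 ± 0.075 (adjusted p = 3.87e-10, limma). MMP9 rose by 0.80 ± 0.193 (adjusted p = 0.000225, limma), MMP3 fell by 0.68 ± 0.198 (adjusted p = 0.00206, limma) and MMP14 fell by 0.17 ± 0.048 (adjusted p = 0.00183, limma). In total 11 of the 31 members, or 35.5%, were called, 5 higher and 6 lower, against 51.6% of all genes (23.2% higher and 28.4% lower). A slope of at least 0.5 was found for 4, with 2 higher and 2 lower, against 6.85% of all genes (5.25% and 1.6%).

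The slope of MMP9 on the leukocyte score depended on which libraries and scores were in the fit. It was -0.20 in the __ libraries alone (adjusted p = 0.737, limma) and -0.04 with the other 5 cell type scores in the fit (adjusted p = 0.826, limma). Without the low-count filter it was 0.31 with an adjusted p of 0.219. The difference between the groups of libraries, as an interaction, gave an unadjusted p of 0.00218 and an adjusted p of 0.167. MMP1, called with 0.48 ± 0.186, had a slope of -0.48 once the other scores were in the fit (adjusted p = 0.000267, limma). MMP2 fell by 0.21 ± 0.093 with an adjusted p of 0.0494, and this call was lost in 11 of the other 13 fits.

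The GS-1 score, which correlated with the leukocyte score at r = 0.92, shared part of its calls in limma. MMP1, MMP2, MMP9 and MMP12 were called on the leukocyte score but not on GS-1. ADAMTS7, MMP13 and MMP15 were called on GS-1 but not on the leukocyte score. MMP19 rose by 0.86 ± 0.082 log2 units per SD, a 1.82-fold change, with an adjusted p of 3.68e-19 in limma. MMP3 fell by 0.84 ± 0.196 (adjusted p = 0.000149, limma), MMP17 by 0.47 ± 0.079 (adjusted p = 1.6e-07, limma) and MMP16 by 0.43 ± 0.083 (adjusted p = 4.8e-06, limma). MMP14, MMP15, MMP16 and MMP17, which are anchored in the membrane at their C-terminal end, were called lower, while MMP23, also held in the membrane, was not called (0.02, adjusted p = 0.94, limma). MMP13 fell by 0.42 ± 0.182 with an adjusted p of 0.045, and it was not called by edgeR (-0.23, adjusted p = 0.24), within either trial or without the 2 farthest dogs.

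The level of MMP19 in the tumors ran from 3.46 to 268 CPM in COTC021 and from 0.882 to 414 CPM in COTC022, with medians of 29.5 and 34.9. It correlated with the GS-1 score at r = 0.627 and rho = 0.597 (permutation p = 1e-05 for both, adjusted p = 5.95e-05 and 6.37e-05), with r of 0.566 and 0.683 within the trials, 0.591 among __ libraries and 0.656 among the rest. MMP3 correlated at r = -0.312 and rho = -0.299 (permutation p = 3e-05 and 4e-05, adjusted p = 0.00015 and 0.000207), with r of -0.311 and -0.310 within the trials.

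Of the 31 members, 10 were called on GS-1, 2 higher and 8 lower, against 49.5% of all genes (22.7% higher and 26.8% lower). MMP19 rose and MMP3 fell by at least 0.5, against 6.6% of all genes (5.29% higher and 1.31% lower). edgeR called 15, with 8 higher and 7 lower, against 51.9% of all genes in edgeR (20.7% higher and 31.2% lower). The 7 it added were ADAMTS2, ADAMTS4, ADAMTS5, ADAMTS12, ADAMTS16, ADAMTS18 and MMP12.

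**Figure D4:**
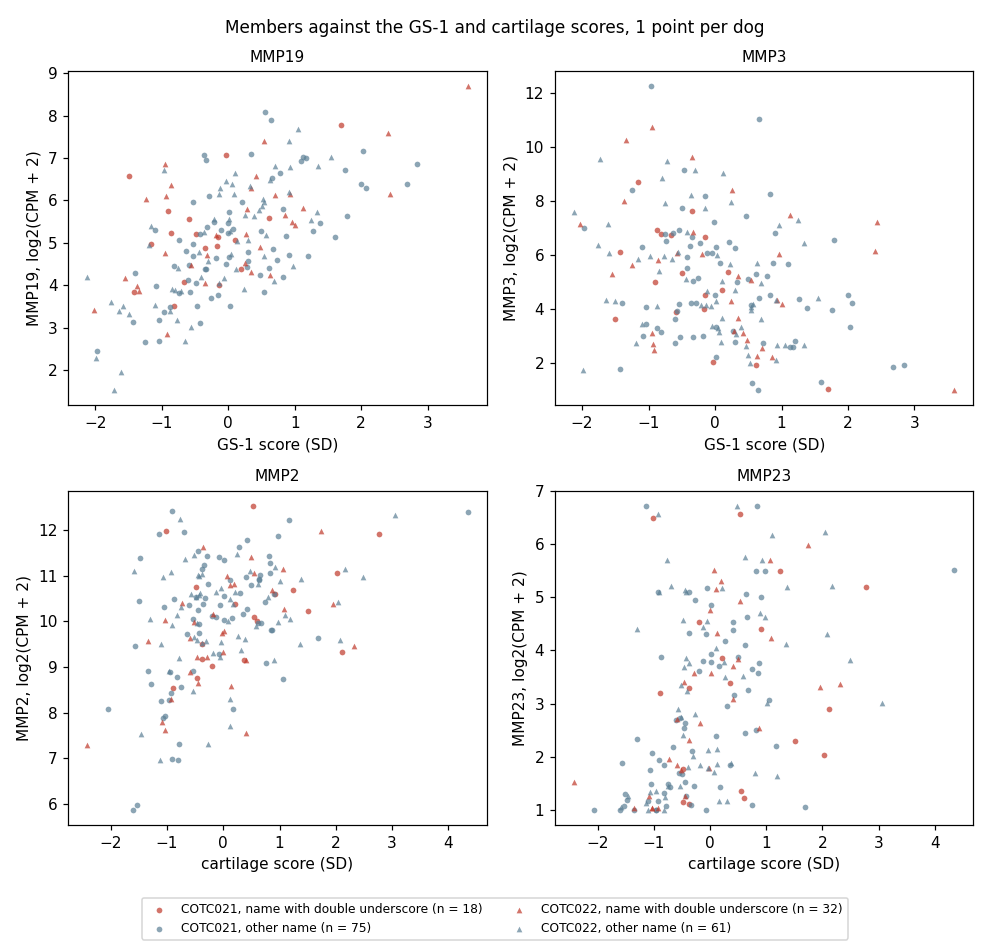
MMP19 and MMP3 against the GS-1 score and MMP2 and MMP23 against the cartilage score, as log2(CPM + 2) on the y axes and score in SD on the x axes, 1 point per dog, with circles for COTC021, triangles for COTC022 and red for the 50 __ libraries. MMP19 rises with GS-1 (r = 0.627), MMP3 falls with wide scatter (r = -0.312), and MMP2 (r = 0.401) and MMP23 (r = 0.421) rise with cartilage.

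On the endothelium score 8 ADAMTS genes rose in limma, and 18.9% of all genes rose. Rises of ADAMTS genes were not particular to this score. On the osteoblast score ADAMTS3, ADAMTS6, ADAMTS7, ADAMTS10, ADAMTS14, ADAMTS17 and ADAMTS18 rose, beside 19.5% of all genes. MMP28, also called epilysin, rose by 0.77 ± 0.048 log2 units per SD (adjusted p = 6.81e-35, limma), and ADAMTS16 by 1.12 ± 0.138 (adjusted p = 3.34e-12, limma). The 4 tested genes that cut proteoglycans all rose, ADAMTS4 by 0.49 ± 0.072, ADAMTS9 by 0.47 ± 0.071, ADAMTS5 by 0.40 ± 0.083 and ADAMTS1 by 0.35 ± 0.069. Both genes that cut cartilage oligomeric matrix protein, ADAMTS7 and ADAMTS12, rose too, by 0.40 ± 0.057 and 0.26 ± 0.095. The call of ADAMTS12 was lost in edgeR (0.15, adjusted p = 0.144) and without the 17 libraries of high muscle markers (0.24, adjusted p = 0.0629, limma).

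In all 16 members were called, 12 higher and 4 lower, against 38% of all genes (18.9% higher and 19.1% lower). MMP23, MMP28 and ADAMTS16 rose by at least 0.5, against 3.99% of all genes and 3.58% for rises. MMP28 correlated with the endothelium score at r = 0.774 and rho = 0.781 (permutation p = 1e-05 for both, adjusted p = 0.000115 and 0.000105), with r of 0.809 and 0.744 within the trials. Its slope was 0.78 without the 17 libraries of high muscle markers. The slope of ADAMTS16 was 0.48 in edgeR (adjusted p = 0.0475). MMP19 also rose on the endothelium score, by 0.48 ± 0.103 (adjusted p = 6.58e-05, limma). With the other cell type scores in the fit its slope was 0.21 ± 0.081 (adjusted p = 0.0453, limma).

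The neutrophil score, made from 5 tested markers, called 10 members, 3 higher and 7 lower, against 16.5% of all genes (9.36% higher and 7.15% lower). The largest called slope was below 0.5, a size passed by 1.68% of all genes (1.59% higher). MMP12 rose by 0.42 ± 0.130, MMP19 by 0.34 ± 0.100 and MMP28 by 0.19 ± 0.069, and TIMP2 fell by 0.16 ± 0.051. edgeR did not call MMP19 (0.22, adjusted p = 0.123) or MMP28 (0.12, adjusted p = 0.267). None of the members was called once the other scores were in the fit, where 11 had an unadjusted p under 0.05. The lowest there was that of MMP28, 0.00511, with an adjusted p of 0.0585 in limma. The share of all genes called in that fit is not given here, so the lack of calls is not read as particular to the members. MMP8, the collagenase of neutrophils, was not tested, since only 51 dogs had 10 or more counts.

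TIMP1 lies inside the span of SYN1, and the genes most like it include its neighbors. On chromosome X, ARAF spans 41382798 to 41394286, SYN1 41394278 to 41443858 and TIMP1 41404449 to 41408018. TIMP1 was most like ARAF (r = 0.558), a kinase of the RAF family, SYN1 (r = 0.533), FOXS1 (r = 0.503), FZD7 (r = 0.475) and PORCN (r = 0.474), the last also on chromosome X from 41968061. Among __ libraries r with ARAF was 0.306, against 0.616 among the rest. The correlation of TIMP1 with TIMP2 did not pass the threshold (r = 0.020, rho = -0.044, permutation p = 0.792 and 0.549, adjusted p = 0.89 and 0.731). With TIMP3 it did not pass after adjustment (r = 0.181, rho = 0.095, permutation p = 0.0135 and 0.198, adjusted p = 0.0705 and 0.398), with r of 0.291 in COTC021, 0.062 in COTC022, 0.312 among __ libraries and 0.138 among the rest, and 0.067 without the 2 farthest dogs. TIMP3 was called on none of the 7 scores in limma, with an unadjusted p above 0.05 on each, and edgeR called it on none, with an unadjusted p of 0.0302 on the neutrophil score.

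To separate the scores, the other cell type scores were added to each fit (for GS-1 the leukocyte score was left out, as it is nearly the same measure). MMP9 and MMP1 kept their slopes on the osteoclast score, with 2.45 ± 0.088 and 2.45 ± 0.117. MMP13 kept a slope on the osteoclast score (1.02 ± 0.156) and on the osteoblast score (1.14 ± 0.159). By contrast, the slope of MMP9 on the osteoblast score went from 1.19 ± 0.175 to 0.31 ± 0.082, and that of MMP1 from 0.86 ± 0.210 to -0.22 with an adjusted p of 0.0707 in limma.

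Other slopes stood with the remaining scores in the fit. MMP19 had 0.73 ± 0.107 on the leukocyte score and 0.73 ± 0.090 on GS-1, and MMP3 had -0.61 ± 0.223 on GS-1 (adjusted p = 0.031, limma). MMP2 had 0.49 ± 0.094 and MMP23 0.63 ± 0.151 on the cartilage score, and TIMP1 had -0.33 ± 0.071. Other calls were lost there, among them MMP2 (-0.08, adjusted p = 0.687) and MMP23 (-0.36, adjusted p = 0.204) on the osteoclast score, MMP3 (-0.60, adjusted p = 0.0896) on the leukocyte score and MMP16 (-0.11, adjusted p = 0.383) on GS-1, all in limma. TIMP1 on the osteoclast score went to 0.24 ± 0.081. On the endothelium score MMP28 had 0.75 ± 0.048 and ADAMTS16 1.13 ± 0.149.

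**Figure D5:**
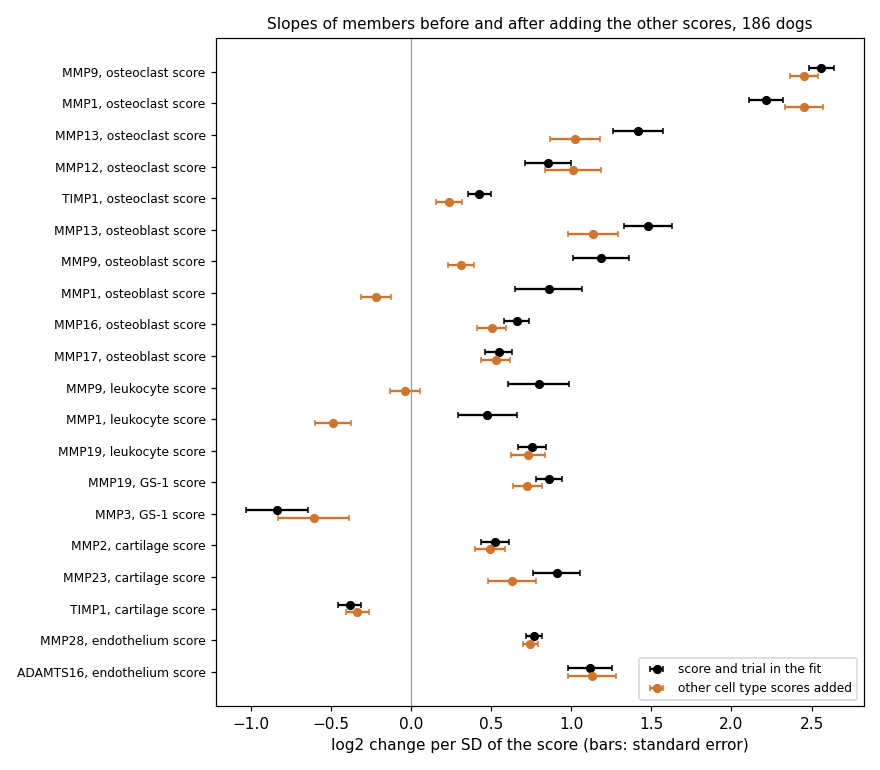
Slopes of named members in log2 change per SD of a score (x axis, bars are the SE, 186 dogs) with the score and trial in the fit (black) and with the other cell type scores added (orange). MMP9 and MMP1 stay near 2.45 on the osteoclast score, while MMP9 on the leukocyte score falls to -0.04 and MMP1 on the leukocyte score to -0.48.

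Whether a slope differs between the trials was tested as an interaction. The interaction of score and trial was called for none of the 31 members on the osteoclast, cartilage, leukocyte or GS-1 score in limma, with 4, 1, 1 and 0 members at an unadjusted p under 0.05. The interaction of score and group of libraries was also called for none, with 4, 0, 5 and 2 members at an unadjusted p under 0.05. These counts do not show that the slopes were equal. The share of all genes called in the interaction fits is not given here, so the counts are not read as particular to the members.

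Genes that activate and control MMPs were examined as a list of 14, of which 11 were tested. On the leukocyte score 6 rose and 3 fell, beside 23.2% and 28.4% of all genes, with a median slope of 0.18 against -0.02 over all genes. SPOCK2, a matrix proteoglycan, rose by 0.68 ± 0.113 and PLAU, the urokinase that generates plasmin, by 0.26 ± 0.070. RECK, a membrane-anchored inhibitor of MMPs, fell by 0.20 ± 0.066 (adjusted p = 0.00897, limma). On the osteoblast score PLAU fell by 0.42 ± 0.064, and on the osteoclast score 3 of the 11 rose and 2 fell, beside 15.1% and 16.7% of all genes, with RECK lower by 0.20 ± 0.064 and FURIN, which activates membrane-type MMPs, higher by 0.17 ± 0.038.

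Of 12 matrix substrates, 11 were tested. On the cartilage score 6 rose and none fell, beside 15.8% and 16% of all genes, with a median slope of 0.43 against 0.01 over all genes, led by COMP with 1.41 ± 0.159 and COL3A1 with 1.14 ± 0.155. On the endothelium score 7 rose and none fell, beside 18.9% and 19.1% of all genes, led by the basement membrane collagens COL4A1 (0.76 ± 0.046) and COL4A2 (0.71 ± 0.048). On the osteoblast score 7 fell and 2 rose, beside 21% and 19.5% of all genes, and the risers were COL1A2 (0.33 ± 0.077) and BGN (0.27 ± 0.071).

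The ADAMTS-like and procollagen-processing list held 10 genes, all tested. On the cartilage score 5 rose and none fell, beside the same 15.8% and 16% of all genes, among them PCOLCE, the enhancer of procollagen C-proteinase, with 0.26 ± 0.060, and on the leukocyte score PCOLCE fell by 0.37 ± 0.057. The 7 subunits of AP-1, a transcription factor known to act on several MMP promoters, all fell with the osteoblast score, on which 21% of all genes fell, with a median slope of -0.25 against 0.00 over all genes. On the osteoclast score, where 15.1% of all genes rose and 16.7% fell, 1 of the 7 rose, FOSL2 by 0.26 ± 0.042, and 1 fell, JUN by 0.20 ± 0.061 (adjusted p = 0.00863, limma).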

How the data were processed

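The authors trimmed reads with Cutadapt, aligned them with STAR 2.7.0f to GSD_1.0 and quantified genes with RSEM 1.3.1, and deposited expected counts, not normalized. Expected counts divide reads shared by similar genes, and 3.07% of values were not whole (tolerance 1e-06). They were rounded. Of 198 columns, 186 matched a labelled dog, and 12 columns were not used. Groups are the trials in the labels.

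Low genes were removed by filterByExpr of edgeR 4.0.16, with a min.count of 10, a large.n of 5 and a min.prop of 0.5, which left 13422 genes. TMM scaling and the voom model of limma 3.58.1 followed (R 4.3.3), with Benjamini-Hochberg adjustment over those genes. The tests are two-sided. CPM are counts over the TMM-scaled library size. Alternatives used edgeR's quasi-likelihood test and DESeq2 1.42.0. Correlations used log2(CPM + 2) and 100000 permutations of the dogs, for 7 scores and 4 genes, adjusted over all genes (Python 3.11.15, numpy 2.4.6). On simulated slopes on the osteoclast score over 13422 genes, limma called 66 of 67 genes at 1, 57 of 67 at 0.5 and 52 of 66 at 0.25 log2 units per SD, and 9 of 13222 unchanged genes.

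The members and lists were chosen with earlier results of these data known. Always named were MMP2, MMP3, MMP9, MMP13, MMP14, ADAMTS4, ADAMTS5 and TIMP1 to TIMP3, with the 4 called members of largest slope for the trial and the osteoclast, cartilage, leukocyte and GS-1 scores, and the 5 genes most like MMP9, MMP13, MMP3 and TIMP1, LOC names left out. All other members, such as MMP28, ADAMTS16 and those on the osteoblast, neutrophil and endothelium scores, and single genes of the pathway lists, were named after their values were seen. Coordinates come from RefSeq genes of GSD_1.0, in which all 45 members were found. Sequences were not used here.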

Additional observations from a re-analysis of the deposited data

How the results depend on the processing

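Of 63 slopes of named members, 31 kept their sign and an adjusted p under 0.05 in each alternative run for that slope. Slopes on the osteoclast, cartilage, leukocyte and GS-1 scores had 14 fits each, the main fit included. Those on the osteoblast, neutrophil and endothelium scores had only 5, with no fit within a trial or group of libraries, so they met fewer checks. Among the 31 were MMP9 (from 2.32 to 2.73), MMP1 (from 1.72 to 2.45) and MMP13 (from 0.99 to 1.89) on the osteoclast score. MMP19 on GS-1 (from 0.71 to 1.00), MMP3 on GS-1 (from -1.21 to -0.61) and MMP2 on the cartilage score (from 0.34 to 0.64) were others. Sign changes were found for MMP3 on cartilage in edgeR (-0.26) and DESeq2 (-0.25), for MMP9 and MMP1 on the leukocyte score in the 50 __ libraries (-0.195 and -0.129), and, with the other cell type scores in the fit, for MMP9 (-0.035) and MMP1 (-0.48) on the leukocyte score, MMP28 on GS-1 (-0.046), MMP1 on the osteoblast score (-0.22) and MMP19 on the neutrophil score (-0.009); the cause was not tested.

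The count on the cartilage score, 13, was 8 with the other scores in the fit, 3 in the __ libraries, 7 in the rest, 5 in COTC021 and 6 in COTC022. On the leukocyte score 11 became 6 with the other scores in the fit and 7 in COTC022, on GS-1 10 became 16 with DESeq2 and 6 in COTC021, and on the neutrophil score 10 became 0 with the other scores in the fit, where 11 members had an unadjusted p under 0.05. Fits within a trial or group of libraries have fewer dogs. On cartilage the share of all genes called was also lower there, 14.4% in COTC021 and 13.8% in COTC022, against 31.8% in the main fit. For the other alternatives in this paragraph the share of all genes is not given, so their counts are not read as particular to the members. The osteoclast, osteoblast and endothelium counts stayed within 1.5 times in the alternatives run. So did all counts without the 17 libraries of high muscle markers. That alternative was chosen after seeing the data, like the interaction with the group of libraries. With the other cell type scores in the fit, the osteoblast count was at the limit of 1.5. ADAMTS3, ADAMTS6, ADAMTS7, ADAMTS10, ADAMTS14, ADAMTS17, MMP1 and MMP3 were no longer called higher there, nor MMP23 lower. MMP12 and TIMP2 were newly called lower in that limma fit. For all genes between the trials, limma called 2, edgeR 129 and DESeq2 91. With log2(CPM + 0.5) each correlation of a named member stayed within the 95% interval of its main value. No paired analysis was possible because each dog is in 1 trial and gave 1 library. At a median of 10797162 counts per library, 14 members could not be tested.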

Other observations

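The 14 members that were not tested were not at 0 in every dog. ADAMTS13, which cuts von Willebrand factor, reached 10 counts in 102 dogs, with a highest value of 6.30 CPM, and MMP25, a membrane-anchored MMP of leukocytes, in 92 dogs with a highest value of 10.5 CPM. ADAMTS15 reached 10 counts in 71 dogs and 118 CPM in its highest dog, ADAMTS20 in 68 dogs and 44.0 CPM, and MMP8 in 51 dogs and 17.9 CPM. ADAMTS8 had 10 or more counts in only 17 dogs, yet 1409 counts and 93.2 CPM in the highest. MMP20, the enamel protease enamelysin, had 10 or more counts in 3 dogs, with 372 counts in the highest. MMP7 and MMP26, the matrilysins, had 10 or more counts in 1 dog each.

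ADAMTS16, with 10 or more counts in 121 dogs and at 0 in 16, had a slope on the GS-1 score of 0.33 in limma with an adjusted p of 0.0787 and of 1.02 in edgeR with an adjusted p of 4.13e-06. On the osteoblast score its slope was -0.31 in limma and -1.13 in edgeR, with an adjusted p of 1.37e-06 in edgeR. Its highest dog held 245 CPM, against a median of 1.29.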
